A study of Mus musculus with 8 samples.

Results

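The targeted gene of this mouse model, Fah, was examined together with its neighbourhood on chromosome 7, to see whether the knockout allele leaves a missing or an extra stretch of DNA against wild-type liver. Members were chosen by position alone, on mouse build mm9. All non-control probes in a window of 2.1 Mb around the gene were taken, with the first and the last base covered at 7:90711799-92791927. Those in a stretch of 30 kb about the gene body form the Fah span, covered at 7:91732669-91757781. The window held 184 of the 170305 probes on the array and the span held 4, with 98 probes in the left flank (lower coordinates) and 82 in the right flank. No gene annotation on mm9 was used here, so the span is approximate. In the RefSeq table, on another build (GRCm38), the annotated gene is shorter than the span. The first and the last of the 4 probes may therefore lie outside the gene, and no probe can be assigned to an exon or an intron.

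Fah encodes fumarylacetoacetate hydrolase, which splits fumarylacetoacetate in the last step of tyrosine breakdown. Without it, fumarylacetoacetate and its precursors build up in hepatocytes and injure them, as in hereditary tyrosinemia type 1, in which liver cancer is common. NTBC (nitisinone) inhibits Hpd, an enzyme further up the pathway, and thereby keeps such mice alive.

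The study hybridized genomic DNA of 8 liver tumors, each from a different male FAH-/- mouse, against one pool made from the livers of 6 FAH+/+ males, littermates of the knockouts. NTBC was given in the drinking water at 7.5 mg/L and then, for 6 to 12 months, at 2.5% of the normal dose. Tumor DNA carried Cy5 (the red channel) and pool DNA Cy3 (the green channel) on every array, and the dyes were not swapped. The labels do not say how the Fah allele was made, give no strain, and no non-tumor liver of a FAH-/- mouse was on an array, so a change of the germline and one of the tumor cannot be told apart. The tumors are numbered 1 to 8 in the order of deposition, with tumors 1 to 4 on one slide and tumors 5 to 8 on the other. Values are log2 ratios of the tumor over the pool signal, with the median of each array at 0. A value of -1 is a tumor signal of one part in 2 relative to the pool.

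On each array, 97.0% to 99.9% of the non-control spots cleared the background limit in the tumor and the pool channel. The ratios of different tumors followed one another closely across probes, with a correlation of 0.669 to 0.913 for each pair of arrays (over probes, which are not independent). The slope of each array on this shared pattern was 1.03 to 1.08 in tumors 1 to 6 and 0.57 and 0.60 in tumors 7 and 8. In the sample titles, tumors 7 and 8 also carry numbers of another series than tumors 1 to 6. What that series stands for is not stated, and its part in the slopes was not tested. A shared pattern makes most probes differ from 0, so counts below stand beside the same count over all probes of the array. Where no such count was made, the text says so. The number of arrays limits the precision.

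All 4 probes of the Fah span gave a clear tumor signal in every tumor, and all 4 were moderately lower than the pool. Their mean log2 ratios ran from -0.26 to -0.73. None was near the level of the negative control spots. The probes are 60 bases long and 5.61 to 10.6 kb apart, so a deletion that lies between them would not be seen.

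A_67_P14940151, at 7:91732669-91732728, is the first probe of the span and may lie just beyond the gene. Its log2 ratios were -0.05, -0.65, -0.96, -0.59, -0.49, -0.39, -0.24 and -0.23 in tumors 1 to 8. Tumor 3 was the lowest and tumor 1 lay near 0. The pool signal of this probe on the tumor 1 array was 1261, below the 2061 to 2844 on the other arrays, although the pool was the same DNA on all 8. The mean was -0.45 ± 0.29 (SD, n = 8; limma adjusted p = 0.000508).

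A_67_P01565908, at 7:91738276-91738335, was the least changed of the 4. Its log2 ratios were -0.09, -0.46, -0.51, -0.27, -0.20, 0.08, -0.39 and -0.22 in tumors 1 to 8. Tumor 6 was above 0 and the other 7 below it. The mean was -0.26 ± 0.20 (SD, n = 8; limma adjusted p = 0.00768). After a loess correction for spot brightness it was 0.05 with a limma adjusted p of 0.622, so the direction at this probe depends on that step.

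A_67_P06266530, at 7:91747133-91747192, lies near the middle of the span. Its log2 ratios were -0.75, -0.86, -0.77, -0.89, -1.01, -0.86, -0.53 and -0.17 in tumors 1 to 8. Tumors 1 to 6 lay close together, while tumor 8 stood well above them. The tumor signals behind these ratios were 453, 467, 429, 486, 354, 372, 477 and 669. The pool signals ran from 701 to 943, so the higher ratio of tumor 8 came with a higher tumor signal, 669, and not with a low pool signal, which was 767 on that array. The mean was -0.73 ± 0.26 (SD, n = 8; limma adjusted p = 4.53e-06).

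A_67_P06266563, at 7:91757722-91757781, is the last probe of the span. Its log2 ratios were -0.65, -0.85, -0.93, -0.75, -0.86, -0.69, -0.49 and -0.55 in tumors 1 to 8. This was the probe with the least spread among the 4, and tumors 7 and 8 were again the nearest to 0. The mean was -0.72 ± 0.16 (SD, n = 8; limma adjusted p = 7.58e-07). Its mean and that of A_67_P06266530 ranked at the 4.04th and 3.87th percentile of all probes on the array, those of A_67_P14940151 and A_67_P01565908 at the 18.0th and 32.1st.

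**Figure D1:**
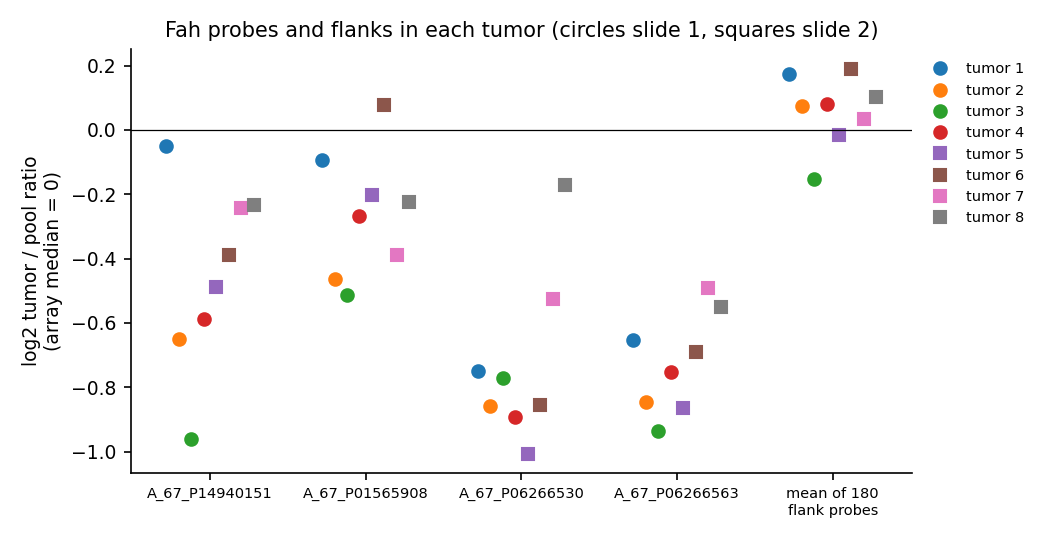
Log2 ratio of tumor over pool (vertical axis, array median at 0) for the 4 probes of the Fah span and for the mean of the 180 flank probes, 1 point per tumor, circles for the first slide and squares for the second. Points of the span probes lie between -1.01 and 0.08, while the flank means lie between -0.15 and 0.19.

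With limma, which tested every probe of the array against 0, 4 of 4 span probes were lower at an adjusted p under 0.05. Over all probes 37.2% were lower by the same rule, so being called lower was common. In 3 of the 4 probes all 8 tumors lay below 0, as they did in 27.1% of all probes. Against a log2 size of 1 (limma's treat), none of the 4 passed. Their means, -0.26 to -0.73, were all smaller in size than 1, so treat could not call them. That outcome gives no information on a change of a smaller size.

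The signals themselves show how far these probes were from an absent target. The tumor channel was well above background at all 4 span probes on all 8 arrays, and so was the pool channel. The lowest tumor signal among the 4 was 354 to 669 per array. On the same arrays the negative control spots, which match no mouse sequence, had a median of 14.9 to 24.5 in the tumor channel and a 95th percentile of 31.7 to 111. The lowest Fah signal of each array was thus 17.5 to 44.9 times the negative control median.

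**Figure D2:**
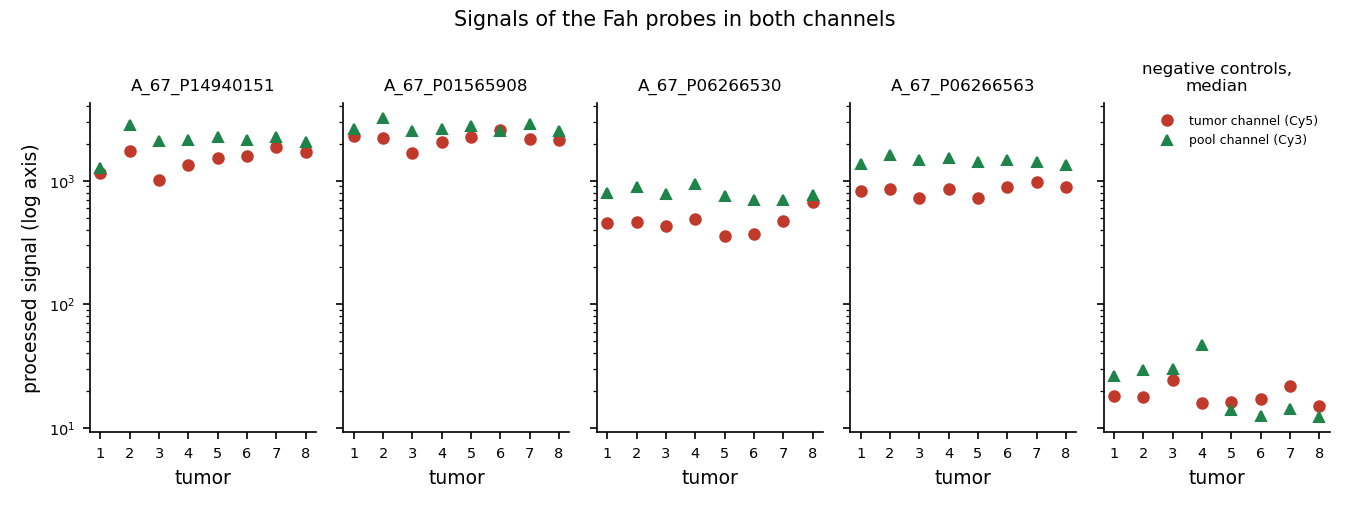
Processed signal (vertical log axis) by tumor for each of the 4 Fah span probes and for the median of the negative control spots, with the tumor channel as red circles and the pool channel as green triangles. At the Fah probes the tumor channel runs from 354 to 2567, against control medians of at most 24.5.

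The pool was hybridized 8 times, so the spread of its signal at a probe is technical, while that of the tumor signal holds the tumors' own spread too. For A_67_P01565908 the SD of the log2 signal over arrays was 0.12 in the pool channel and 0.17 in the tumor channel. For A_67_P06266530 it was 0.15 and 0.28, and for A_67_P06266563 0.09 and 0.15. A_67_P14940151 was the exception, with 0.33 and 0.31. The median over all probes was 0.12 in the pool channel and 0.26 in the tumor channel, so the first span probe was the only one of the 4 whose pool signal varied more between arrays than its tumor signal.

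Probes inside the span were compared with the flanks within each tumor, which takes out where 0 is set. The span mean minus the flank mean was -0.56, -0.78, -0.64, -0.71, -0.62, -0.66, -0.45 and -0.40 in tumors 1 to 8. All 8 tumors lay below 0, and tumors 7 and 8 had the smallest differences. The mean difference was -0.60 ± 0.13 (SD, n = 8; two-sided exact sign-flip permutation p = 0.00781, the smallest that 8 tumors can give). It came from a span mean of -0.54 ± 0.18 (SD, n = 8) and a flank mean of 0.06 ± 0.11 (SD, n = 8). Against the left flank alone it was -0.59 and against the right flank alone -0.62. With the approximate ends left out, the 2 middle probes gave -0.56 (a choice made after seeing the data).

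This difference has to be read against the shared probe pattern. Every run of 4 neighbouring probes on chromosomes 1 to 19 was compared with its own flanks in the same way, 149050 overlapping runs in all. In 31.9% of the runs all 8 tumors lay below the flanks, in 27.7% all lay above them, and so in 59.6% they lay on one side, so the sign-flip p by itself does not set Fah apart. By size, the Fah difference of -0.60 was at the 1.2nd percentile of the runs, whose 5th and 95th percentiles were -0.46 and 0.51. The 2 tumors with the weak shared pattern, 7 and 8, were also those with the smallest Fah differences, and the mean of the other 6 was -0.66 ± 0.07 (SD, n = 6). Loess correction for brightness left a difference of -0.47. The part of the pattern and of brightness in the Fah difference was not tested. Subtracting the pattern gave 0.02 (exact permutation p = 0.516), but that step removes by construction whatever all tumors share at a probe, a germline change included.

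**Figure D3:**
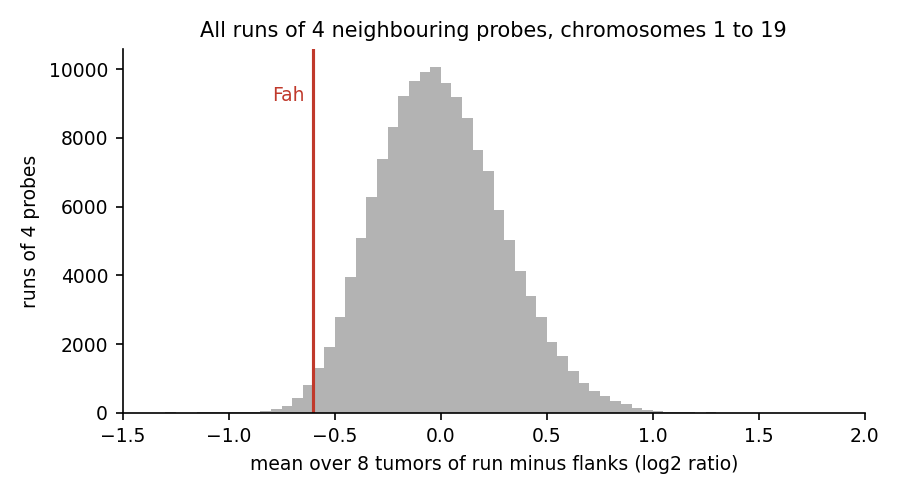
Number of runs of 4 neighbouring probes on chromosomes 1 to 19 (vertical axis) by the mean over 8 tumors of the run's log2 ratio minus that of its flanks (horizontal axis). The red line marks the Fah span at -0.60, at the 1.2nd percentile of the 149050 runs.

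The probe next to the span on either side did not pass the limma test. On the left, A_67_P06266466 at 7:91725001-91725060 had a mean of -0.14 ± 0.19 (SD, n = 8; limma adjusted p = 0.128), with 6 tumors below 0 and 2 above. On the right, A_67_P06266582 at 7:91766293-91766352 had a mean of 0.07 ± 0.22 (SD, n = 8; limma adjusted p = 0.432), with 2 tumors below 0 and 6 above. The next probe, A_67_P14940408 at 7:91773034-91773093, was high in all 8 tumors, from 0.54 in tumor 7 to 1.37 in tumor 6, with a mean of 1.14 ± 0.28 (SD, n = 8; limma adjusted p = 1.01e-07). Further right, A_67_P14940440 at 7:91786161-91786220 was low again, with a mean of -0.48 ± 0.30 (SD, n = 8; limma adjusted p = 0.000372), 7 tumors below 0 and tumor 7 above. That is lower than 2 of the 4 span probes, so the low values were not limited to the span. These 4 probes were named after their values were seen. With the span widened by 20 kb on each side, to 8 probes, the difference from the flanks shrank to -0.20. The widened span takes in the high A_67_P14940408 but ends before the low A_67_P14940440. The other probes it adds had means of -0.03, -0.14 and 0.07.

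Along the whole window the ratios scattered widely from probe to probe and the Fah probes lay within that scatter. Flank probes ran from -0.82 to 1.57 with a median of -0.07, beside a median of -0.01 over all probes. The SD over the flank probes was 0.54, and over all probes it was 0.59. Limma called 144 of the 184 window probes (78.3%), 80 lower and 64 higher, while over all probes it called 74.8%, 37.2% lower and 37.6% higher. With the peak of each array's density as 0, which lay 0.08 to 0.40 below the array median, 39 were lower and 90 higher. Over all 170305 probes 32330 were then lower and 88375 higher. The balance thus depends on where 0 is set, in the window as over the array. In 62 window probes all 8 tumors lay below 0 and in 49 all lay above, 33.7% and 26.6%, beside 27.1% and 27.5% over all probes.

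**Figure D4:**
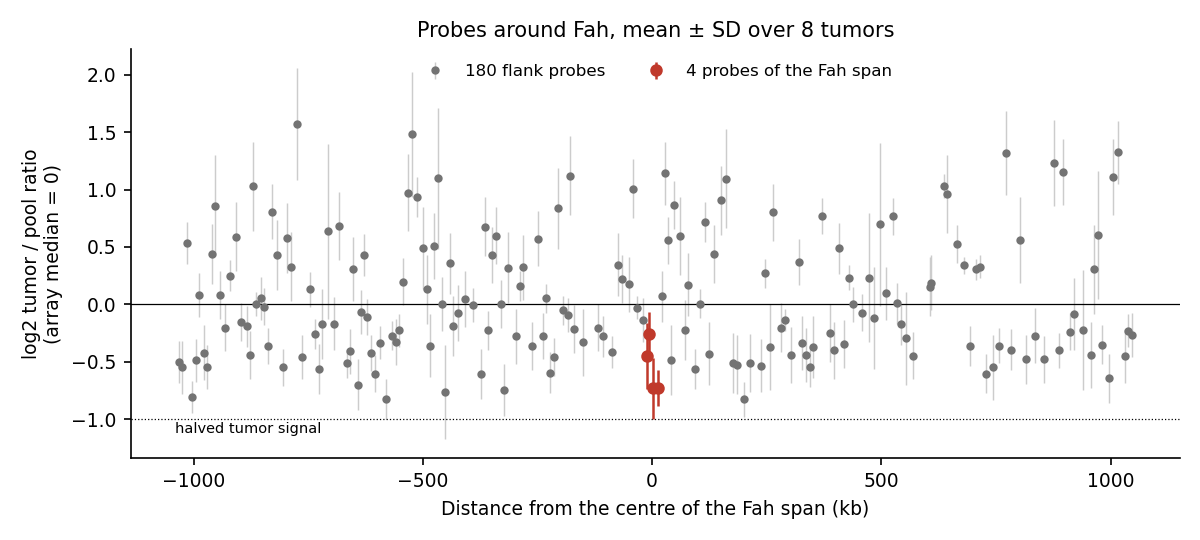
Mean log2 ratio of tumor over pool (vertical axis, array median at 0, bars are SD over 8 tumors) for the 184 window probes by distance from the centre of the Fah span in kb. The 4 Fah probes, in red, lie between -0.26 and -0.73, inside the range of the flank probes from -0.82 to 1.57, and no mean reaches the dotted line at -1.

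On this scale the 5 lowest flank probes lay at or just below the lowest Fah probes. A_67_P14941172 at 7:91946310-91946369 had a mean of -0.82 ± 0.15 (SD, n = 8), A_67_P14936761 at 7:91165347-91165406 one of -0.82 ± 0.17 (SD, n = 8), and A_67_P06263966 at 7:90742131-90742190 one of -0.81 ± 0.14 (SD, n = 8). A_67_P14937533 at 7:91292539-91292598 and A_67_P06265755 at 7:91422392-91422448 followed with -0.76 ± 0.41 and -0.74 ± 0.23 (SD, n = 8). All 5 had all tumors below 0 and a limma adjusted p of at most 3.57e-05. Against a log2 size of 1, none of the 5 passed limma's treat, which could not call them, as their means were smaller in size than 1. After loess correction for brightness the order changed: the Fah probe A_67_P06266530 was at -0.97, A_67_P14941172 at -0.94, A_67_P06263966 at -0.77 and the other 3 between -0.46 and -0.37.

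At the other end, A_67_P06264592 at 7:90969055-90969114 was the highest probe of the window, with a mean of 1.57 ± 0.49 (SD, n = 8). It ran from 0.68 in tumor 7 to 2.23 in tumor 4. A_67_P06265252 at 7:91221974-91222033 had a mean of 1.48 ± 0.55 (SD, n = 8). A_67_P14943974, A_67_P01566464 and A_67_P06267616, all in the right flank, had means of 1.32 ± 0.28, 1.32 ± 0.37 and 1.23 ± 0.37 (SD, n = 8). The pool signal of A_67_P01566464 was not well above background on 2 arrays. These 5 single probes were above 0 in all 8 tumors, with limma adjusted p-values of at most 6.41e-07. In limma's treat against a log2 size of 1, 1 window probe was higher, A_67_P06264592 with an adjusted p of 0.0231, and 0 were lower, while over all probes treat called 1.89% in the higher and 0.084% in the lower direction. Before adjustment, at a p under 0.05, treat called 0 window probes lower and 5 higher, a count not made over all probes. Without tumor 1, 2, 3, 4, 5 or 6 treat's adjusted count in the window was 0 in both directions. Without tumor 7 or 8 it was 2 and 4, all higher. The count over all probes moved likewise. In the higher direction it was 3227 with all tumors, 2005 to 2387 without tumor 1, 2, 3, 4, 5 or 6, and 5462 and 5379 without tumor 7 or 8. In the lower direction it was 143, 127 to 134, and 168 and 153. A mean at or under -1 was found at 0 of 184 window probes, beside 0.456% of all probes.

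A probe whose target is missing from the tumor mice and present in the pool would be dim in the tumor channel only. In the window 0 of 184 probes had a tumor signal not well above background with a pool signal above it, on any array. Over all probes 0.211% did so on at least 1 array and 0.0188% on all 8. Another 7 window probes had a dim pool signal and a measured tumor signal on at least 1 array, a count not made over all probes. In the window 176 of 184 probes were above background in both channels throughout, beside 163766 of 170305 over the array. In the right flank, A_67_P14942212 at 7:92241594-92241653 was not well above background in either channel on any array, with tumor signals of 28.0 to 100.1 and pool signals of 19.3 to 100.2. Its neighbour A_67_P06267255 at 7:92217131-92217190 passed in the tumor channel on 2 arrays and in the pool channel on 0. No ratio is read from these 2 on their own, but both are among the 184 probes behind the means, bins and limma counts. With only probes above background in both channels throughout, the span minus flank difference was -0.58.

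Elsewhere on chromosome 7 some probes had a tumor signal not well above background in all 8 tumors and a pool signal above it. They were looked up after the values had been seen. Whether their target is missing or differs in sequence between the mice and the pool was not tested. There were 5 of them among 9833 probes of the chromosome, and 32 among all probes. The deepest, A_67_P06171259 at 7:46843173-46843232, had a mean of -4.40 ± 1.03 (SD, n = 8), with tumor signals of 13.0 to 84.7 and pool signals of 508 to 686. A_67_P06125628 at 7:13503703-13503762 had a mean of -3.91 ± 0.46 (SD, n = 8). The nearest of the 5 to Fah, A_67_P01513756 at 7:57043359-57043418, was 34.7 Mb away.

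Probes at or under -1 on average were 65 on chromosome 7, or 0.661%, beside 0.456% of all probes. Of these, 33 lay among the 1389 probes in the first 30 Mb and 32 among the 8444 probes beyond. Within 10 Mb of the Fah span there was 1 among 1477 probes, 4.35 Mb away, with a mean of -1.04. At shares of this size about 1 such probe would fall in a window of 184, so that none did says little about the window.

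A stretch of 35 neighbouring probes on chromosome 12 was far lower in tumor 1 than in the other 7 tumors and gives a measure of scale. It was chosen with earlier results of these arrays known. The mean log2 ratio of tumor 1 there was -1.64, with a median tumor signal of 277 against a pool signal of 1011. The other 7 tumors were between -0.22 and 0.27 at the same probes, with median tumor signals of 718 to 981. Tumor 1 was at -0.39 over the Fah span, and the lowest tumor there, tumor 3, was at -0.80. With the shared pattern removed, the 35 probes were at -1.96 in tumor 1 and at -0.36, -0.45 and -0.37 in tumors 4, 6 and 8. The remaining tumors were between -0.13 and 0.06, so not all of the other 7 are an unchanged reference.

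The neighbourhood as a whole was close to the level of the rest of chromosome 7. In the RefSeq order, the protein-coding neighbours of Fah are Gm2115, Arnt2 (a transcription factor of the bHLH-PAS family), Abhd17c, Cemip and Mesd on one side and Zfand6, the olfactory receptor genes Olfr291 and Olfr290, and the vomeronasal receptor genes Vmn2r65 and Vmn2r66 on the other. They were not placed on mm9, so no probe is assigned to them. The window mean minus that of the other chromosome 7 probes was -0.05, -0.05, -0.06, -0.07, -0.04, -0.06, 0.05 and -0.005 in tumors 1 to 8. Tumor 7 was above 0 and the other 7 below. The mean was -0.04 ± 0.04 (SD, n = 8; two-sided exact sign-flip permutation p = 0.0391). One spot of the window, marked as an outlier on the tumor 8 array, was left out there.

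That call was lost when any single tumor other than tumor 7 was left out, while the mean stayed between -0.05 and -0.03. With 7 tumors the smallest possible exact p is 0.0156, so the test is also coarser. Without tumor 1, 2, 3, 4, 5, 6 or 8 the exact permutation p was 0.0625 to 0.0781, and without tumor 7 it was 0.0156 with a mean of -0.05. Among 23577 overlapping windows of 2.1 Mb on chromosomes 1 to 19, 32.8% had all 8 tumors on one side of their chromosome, and the Fah window lay at the 25.8th percentile. With the shared pattern removed the difference was 0.009 ± 0.030 (SD, n = 8; exact permutation p = 0.516).

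For single tumors, levels along the window were read with the shared pattern removed, in 7 bins of 300 kb with 21 to 31 probes each, and with the commonest level of 1 Mb bins set to 0 in each tumor. On this scale tumor 3 was low throughout, with bins from -0.41 to -0.26 and a window mean of -0.31, like the rest of its chromosome 7 at -0.30. The other 7 tumors had window means between -0.05 and 0.03. In the bin that holds Fah they lay between -0.07 and 0.03, and tumor 3 was at -0.30. In bin means the low level in tumor 3 thus ran across the bin that holds Fah and both flanks. The single span probe A_67_P06266530 was not low in that tumor, at 0.06.

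The flanks were also set against each other on this scale. Right flank minus left flank was -0.005, 0.09, -0.08, -0.06, -0.002, -0.15, 0.22 and 0.06 in tumors 1 to 8. The extremes were tumors 6 and 7, of opposite sign. On this scale the noise between neighbouring probes was largest on the tumor 7 array, at 0.21, and was 0.12 to 0.18 on the others. Each flank difference comes from a single array, so a step within 1 tumor has no replicate and was not tested. Over the 8 tumors the mean was 0.009 ± 0.114 (SD, n = 8; two-sided exact sign-flip permutation p = 0.812).

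**Figure D5:**
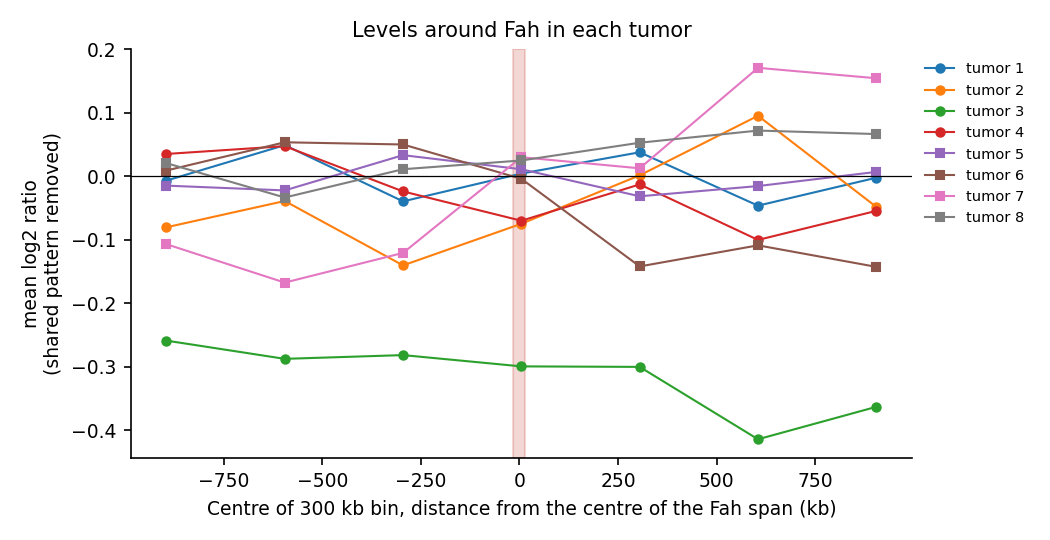
Mean log2 ratio with the shared pattern removed (vertical axis) in 7 bins of 300 kb by distance of the bin centre from the Fah span in kb, 1 line per tumor, with the span shaded. Tumor 3 lies between -0.41 and -0.26 across all bins, and the other 7 tumors lie between -0.17 and 0.17.

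With the pattern removed, single Fah probes still differed between tumors. A_67_P14940151 ran from -0.56 in tumor 3 to 0.34 in tumor 1, and A_67_P01565908 from -0.29 in tumor 3 to 0.24 in tumor 6. A_67_P06266530 was at 0.31 in tumor 8 and between -0.09 and 0.08 in the others. A_67_P06266563 ran from -0.21 in tumor 3 to 0.06 in tumor 1. Averaged over the 4 probes, tumor 3 was the lowest at -0.25 and tumor 1 the highest at 0.15.

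The stretches of genome whose level varied over the 8 tumors most like the Fah window lay mainly on its own chromosome. Of the 5 bins of 1 Mb with the highest Pearson correlation (n = 8 tumors, chosen as the highest of 2513 bins), 4 were on chromosome 7, starting at 48, 123, 96 and 127 Mb, with r of 0.990, 0.988, 0.985 and 0.983 and Spearman's rho of 0.929, 0.619, 0.810 and 0.833. The other, on chromosome 6 at 4 Mb, had an r of 0.976 and a rho of 0.881. Chromosome 7 held 131 of the 2513 bins and 40 of the 50 with the highest r. Tumor 3 was at -0.33 to -0.32 in all 5. Without tumors 3 and 8, the farthest from the median of the window, r was 0.665, 0.166, 0.563, 0.444 and 0.890 in the same order. With these 2 tumors left out together the correlation fell in all 5 bins, least in the bin on chromosome 6. Leaving out tumor 3 alone was not tested.

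Further enzymes of tyrosine breakdown could be placed by chromosome only. In order of the pathway they are Tat, the aminotransferase, on chromosome 8, Hpd, the target of NTBC, on chromosome 5, Hgd, which opens the ring of homogentisate, on chromosome 16, and Gstz1, the isomerase that makes the substrate of Fah, on chromosome 12. With the pattern removed, the mean of chromosome 7 was -0.06 ± 0.10 (SD, n = 8). It was -0.10 ± 0.16 for chromosome 8, with tumor 6 at -0.50 and the others between -0.07 and 0.004, and -0.03 ± 0.09 for chromosome 5, with tumor 8 at -0.22 (SD, n = 8). For chromosome 16 it was 0.12 ± 0.24, with tumor 5 at 0.71, and for chromosome 12 it was -0.28 ± 0.26, with tumors 1, 6, 8 and 4 at -0.69, -0.49, -0.42 and -0.37 (SD, n = 8). Tumor 3, the lowest for the chromosome of Fah at -0.30, was at 0.02 for that of Hgd and at -0.03 for that of Gstz1.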

How the data were processed

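The members and lists were chosen with earlier results of these data known. Spot signals came from Agilent Feature Extraction 10.7.3.1, run by the authors, per the submitters' processing notes. The deposited processed signals are intensity values, background-subtracted, detrended and linearly dye-normalized, and probe positions are on mm9, per the file headers. The deposited log ratios are log10 of red over green, and the deposited series table holds the same values rounded. The deposited spot marks (outlier, well above background) are coded 0 or 1.

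Log2 ratios of red over green were computed for non-control spots, outlier-marked spots were left out, spots of 1 probe averaged and arrays centred on their median. The tests were limma 3.58.1 in R 4.3.3 (intercept only, Benjamini-Hochberg over 170305 probes, n = 8) and two-sided exact sign-flip permutation over tumors (Python 3.11.15, numpy 2.4.6), both tested on simulated data. Mean-signal columns are not used here, so normexp (offset 50) took median signals. The named probes are all 4 of the span and, of the flanks, the 5 lowest and 5 highest with all tumors on one side of 0. Likeness names the 5 bins with the highest correlation. The shared pattern at a probe is its median ratio over the 8 arrays, once chromosome medians are subtracted. It was removed in proportion to each array's slope on it. Replicates are separate mice, and the single pool's spread is in no error. Probe sequences and gene positions on mm9 were not used here. A gene of the pathway list is not reported here.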

Additional observations from a re-analysis of the deposited data

Results flagged for a closer look

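Of 42 sets of 8 tumors examined for a single far value, 5 had one. For a single set chance alone gives about 1 in 20. The sets share arrays and probes, so 5 of 42 cannot be weighed against that rate. The tumor signal of A_67_P06266530, inside the Fah span, was 669 in tumor 8, with 486 as the next highest. The window mean with the shared pattern removed was -0.31 in tumor 3, with -0.05 as the next lowest, and the bin that holds Fah was at -0.30 in tumor 3, with -0.07 as the next lowest. The window minus the rest of chromosome 7, with the pattern removed, was 0.075 in tumor 7, with 0.026 as the next highest. The tumor 7 array also had the largest noise between neighbouring probes on that scale. The log2 ratio of A_67_P06267616, in the right flank, was 0.43 in tumor 8, with 1.13 as the next lowest.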

How the results depend on the processing

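The span minus flank difference kept its direction and its call under 25 of 28 alternatives, from -0.75 with flanks within 150 kb to -0.20 with a widened span, and between -0.63 and -0.58 with each tumor left out in turn. The 25 include unplanned settings, with single span probes left out or only the 2 middle ones kept. They also include the deposited log ratios and series table, which hold nearly the same values as the main setting. In none of the 25 was the shared pattern subtracted. In the main setting 59.6% of all runs of 4 probes had all 8 tumors on one side. The count of 25 thus does not set Fah apart. Within the slides the span minus flank difference was -0.67 and -0.53, where 4 tumors cannot give an exact p under 0.125, and with the shared pattern removed it was 0.019. The window minus the rest of chromosome 7 was -0.016 after normexp (exact permutation p = 0.0938), -0.034 with outlier marks kept (exact permutation p = 0.0703), -0.058 and -0.015 within the slides, -0.049 to -0.032 with each tumor left out, and 0.0092 with the pattern removed. It was past the threshold and further from 0 in the inner window (-0.089), after loess (-0.068), as a median (-0.058) and without tumors 7 and 8 (-0.056). The cause was not tested. Limma's count of window probes was 120 to 148 under all alternatives, and its treat count 0 to 7, all higher. By direction, 39 to 93 window probes were lower and 54 to 90 higher. Over all probes 32330 to 78277 were lower and 51983 to 88375 higher. Treat called 77 to 214 of all probes lower and 875 to 9624 higher, so the counts moved over the array too. Of 14 named probes, A_67_P01565908 changed direction (0.048 after loess), and with density peaks as 0 it was -0.02 (limma adjusted p = 0.86) and A_67_P14940151 was -0.21 (limma adjusted p = 0.0566). Loss between the probes would not be seen. No paired analysis was possible because the tumors form 1 group.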
